A study of Mus musculus with 32 samples.

Results

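Kcnn4 and Aqp5 encode the potassium channel and the water channel that had the highest mean levels among the channels of their kinds in laser-captured regions of mouse mammary tumours. Both genes were found by symbol in the deposited table of read counts, as NCBI gene IDs 16534 (Kcnn4) and 11830 (Aqp5), and they are 2 of its 24454 gene IDs. They were chosen by their CPM in these libraries and by its likeness between them, and their levels by stage and position and their correlation are therefore given as a description with no test.

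The animals of all 32 libraries were females of the genotype MMTV-PyMT; R26-CBW; K8-CreERT2, so the normal gland carried the same transgenes as the tumours. MMTV-PyMT drives the polyoma middle T oncogene in mammary epithelium, and K8-CreERT2 is a tamoxifen-dependent recombinase driven by the keratin 8 promoter, which is active in luminal epithelial cells. Tamoxifen (5 mg) given at 5 weeks of age switched on a Confetti fluorescent colour at random, and patches of 1 colour were cut by laser from sections of 7 µm once the tumours had grown to the allowed limit. The libraries were from normal mammary gland (n = 3, 2 of them pooled over colours and the third labelled as a core region), hyperplasia (n = 5), adenoma (n = 8), carcinoma (n = 9) and lung metastasis (n = 7). The labels place 13 regions in the core, 7 at the border and 3 outside the tumour mass, and of the metastases 4 at the lung's border and 3 in its centre. Although 3 animals are stated, the labels name the animal of no region, so that regions of 1 group can share an animal, and the spread over libraries is partly a spread within animals.

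Total counts ranged from 2688611 to 19585351 per library (median 8753096.5), and 10258 to 17667 genes had a count. In 3 libraries (hyperplasia 22, adenoma 51 and metastasis 42) fewer than 11000 genes did, and the gene ID of highest share took 5.20% to 78.9% of a library. Levels are in CPM, counts scaled to a common library size, with the sizes adjusted by TMM, a method that lines up the bulk of genes between libraries. Each CPM value of Kcnn4 rested on 660 counts or more and each of Aqp5 on 576 or more. The reads were amplified without molecular identifiers, so intervals from counts cover counting error only.

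Kcnn4 is the intermediate-conductance calcium-activated potassium channel (KCa3.1, the Gardos channel of red blood cells), which opens when calcium binds to the calmodulin held on its subunits. Aqp5 is a water channel of the apical membrane of salivary, lacrimal and other secretory glands, and it also marks type I cells of the lung alveolus. In fluid-secreting epithelia both belong to one chain of transport. Slc12a2 (NKCC1) loads chloride across the basolateral membrane, Ano1 (TMEM16A) and Cftr let chloride out at the apex, potassium channels such as Kcnn4 keep the membrane voltage that drives its exit, and water follows through aquaporins.

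In the RefSeq annotation of GRCm38.p6, Kcnn4 lies on the plus strand of chr7:24369826-24385212, between Lypd5 and Smg9, and Aqp5 on the plus strand of chr15:99591028-99594829, between Aqp2 and Aqp6. The principal GENCODE transcript has 9 exons and 1990 bases for Kcnn4, and 4 exons and 1797 bases for Aqp5. Because the levels of the pair went together across libraries, their promoter windows (250 bases before to 50 bases after the RefSeq transcript start) were searched on both strands for 6 short motifs. The palindrome CACGTG, a form of the E-box, was the only one of the 6 besides the GC box (GGGCGG) that occurred in both windows, once in each, in the stretches shown here with the motif in capitals.
Kcnn4, chr7:24370118-24370147, plus strand, 133 bases upstream of the start: tgtgtctttgccCACGTGgatgaactcttc
Aqp5, chr15:99590929-99590958, plus strand, 87 bases upstream of the start: tgccgcgtgggtCACGTGgcccgggcgggt
Of the 32851 promoter windows in the same RefSeq table, 7.15% held CACGTG. Whether the motif has any part in the levels of the pair was not tested. The Kcnn4 stretch lies inside the gene's annotated span, since an earlier start is annotated than the one the window is built on. GGGCGG occurred once for Kcnn4 and 3 times for Aqp5, against 35.7% of all windows with a match. TATAAA (13.6% of windows), CCAAT (37.4%), TGANTCA (7.81%) and TTCNNNGAA (8.3%) had no match in either, which says only that these letters are not in the windows. The windows were unlike in base composition, with 79.67% G or C and 46 CpG sites for Aqp5 against 59.67% and 6 for Kcnn4 (median of all windows 52.67%).

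Kcnn4 was present in every library, at 178 to 2496 CPM. In normal gland it stood at 218 CPM in library 18, 178 CPM in library 28 and 394 CPM in library 30. In hyperplasia it stood at 464 CPM in library 21, 387 CPM in library 44, 528 CPM in library 22, 858 CPM in library 33 and 1373 CPM in library 46. The lowest hyperplasia value was thus just under the highest normal value, and the other 4 were above it. Over the 8 adenoma libraries the lowest value was 650.3 CPM, the median 942 CPM and the highest 1371 CPM. Over the 9 carcinoma libraries they were 417, 867 and 2496 CPM. Adenoma and carcinoma lay wholly above normal gland. In the 7 metastases the lowest value was 215 CPM, the median 466 CPM and the highest 991 CPM. Of the 7, 6 were below every adenoma. The share of all genes for which this holds was not computed, so nothing particular to Kcnn4 is read from it.

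The mean of Kcnn4 was 263 ± 115 CPM for normal gland (SD, n = 3), 722 ± 406 for hyperplasia (n = 5), 1012 ± 249 for adenoma (n = 8), 1103 ± 637 for carcinoma (n = 9) and 524 ± 236 for metastasis (n = 7). These means were 2.74, 3.85, 4.19 and 1.99 times that of normal gland, in the order of the stages. In order of level the stages ran normal gland, metastasis, hyperplasia, adenoma and carcinoma, and each neighbouring pair in that order overlapped. All library values in adenoma and carcinoma were above all in normal gland. Of the 19907 genes tested, 1.02% had every adenoma library above every normal library and 0.894% every carcinoma library. By edgeR's quasi-likelihood test 1 of these genes (0.00502%) differed between carcinoma and normal gland at an adjusted p of 0.05, the adipocyte gene Cfd, which was lower in carcinoma, and 1626 had an unadjusted p under 0.05. Here and in every later test, p-values treat regions as separate samples and are too small where regions share an animal.

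Aqp5 was present in every library too, at 155 to 2238 CPM. In normal gland it stood at 186 CPM in library 18, 155 CPM in library 28 and 184 CPM in library 30, a far narrower range than that of Kcnn4. In hyperplasia it stood at 934 CPM in library 21, 565 CPM in library 44, 583 CPM in library 22, 395 CPM in library 33 and 701 CPM in library 46. All 5 were above the normal gland. The lowest, median and highest values were 346, 874 and 1316 CPM in adenoma, and 269, 578 and 2238 CPM in carcinoma. In metastasis they were 189.7, 462 and 868 CPM. Normal gland overlapped no other stage for Aqp5, although the lowest metastasis, at 189.7 CPM, was close to the highest normal value of 186 CPM.

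The mean of Aqp5 was 175 ± 17.4 CPM for normal gland (SD, n = 3), 635 ± 199.6 for hyperplasia (n = 5), 883 ± 298 for adenoma (n = 8), 945 ± 745 for carcinoma (n = 9) and 469 ± 237 for metastasis (n = 7). Against normal gland the means were 3.63, 5.05, 5.40 and 2.68 times as high. The order of stages was that of Kcnn4, and all neighbours above normal gland overlapped. Every library above every normal library was seen for 1.35% of tested genes in hyperplasia and for 0.754% in metastasis.

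**Figure D1:**
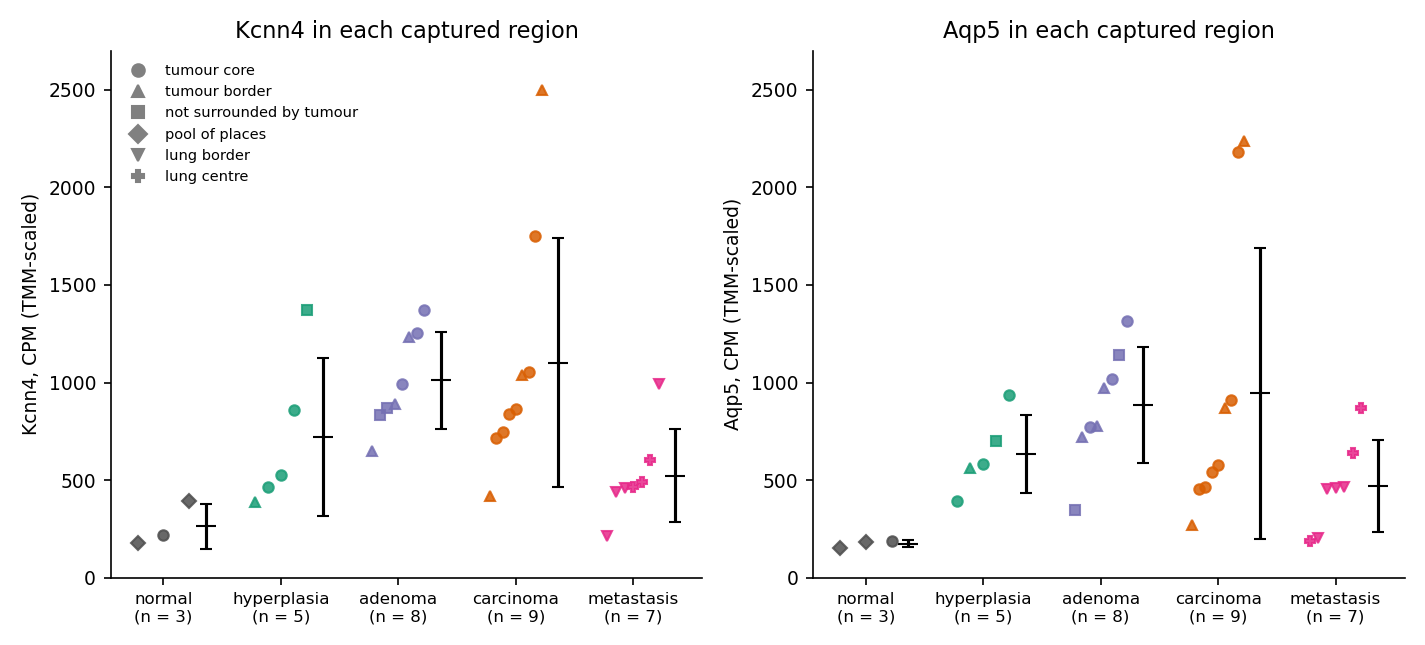
Kcnn4 and Aqp5 in each of the 32 libraries, in CPM, by stage (x axis), with 1 point per library shaped by position and black bars for the stage mean and SD. Carcinoma 08 and carcinoma 54 stand highest for both genes, at 2496 and 1753 CPM of Kcnn4 and 2238 and 2183 CPM of Aqp5.

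Within carcinoma, 2 libraries stood above the rest for both genes. Carcinoma 08, a red border region, held 2496 CPM of Kcnn4 and 2238 CPM of Aqp5, and carcinoma 54, a yellow core region, held 1753 and 2183 CPM. These 2 libraries also had the highest total counts of their stage, 19564392 and 17422805. The third highest carcinoma value was 1053 CPM for Kcnn4 and 912 CPM for Aqp5. At the other end, carcinoma 39, a yellow border region, was the lowest for both, with 417 CPM of Kcnn4 and 269 CPM of Aqp5. Without the 2 high libraries the carcinoma mean was 807 CPM for Kcnn4 and 581 CPM for Aqp5, below the adenoma means of 1008 and 879 CPM under the same scaling.

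The mean in metastasis was 0.475 times that in carcinoma for Kcnn4 and 0.496 times for Aqp5, with overlapping libraries for both genes. Only 3 of 19907 genes (0.0151%) passed the edgeR quasi-likelihood test at an adjusted p of 0.05 between these stages, and all 3 were lung surfactant genes that were higher in the metastases (Sftpa1, Sftpb and Sftpc). Aqp5 is itself a gene of alveolar type I cells, and its level stands here beside the lung markers. The metastasis with most Ager, a type I marker, was library 02 with 74.8 CPM of Ager and 637 CPM of Aqp5. Library 57 had 1.19 CPM of Ager and 462 CPM of Aqp5. The highest Aqp5 of the metastases, 868 CPM in library 27, stood beside 12.4 CPM of Ager, and the lowest, 189.7 CPM in library 42, beside 27.6 CPM. Hopx, another of the lung markers, was highest in library 42 (52.1 CPM) and library 58 (12.8 CPM), the metastases with least Aqp5 (189.7 and 202 CPM). It stood at 7.68 CPM in library 02 and 6.31 CPM in library 27. The summed level of the 13 tested lung markers was 424 to 4616 CPM in metastasis (median 1256 CPM), 2.47 to 77.2 CPM in carcinoma and 47.4 to 225 CPM in normal gland, where 3 of the 13 had no count. The part of lung cells in the metastasis values was not tested. In bulk regions like these, fewer cells of a type and less RNA of a gene per cell cannot be told apart.

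By position, both genes had their highest adenoma mean in the core and their highest carcinoma mean at the border. Kcnn4 stood at 1207 ± 193 CPM in adenoma core (SD, n = 3), 925 ± 293 at the border (n = 3) and 836 to 868 CPM outside (n = 2). Aqp5 stood at 1036 ± 273, 823 ± 132 and 346 to 1143 CPM in the same regions. In carcinoma, Kcnn4 stood at 995 ± 390 CPM in the core (n = 6) and 1317 ± 1067 at the border (n = 3), and Aqp5 at 855 ± 672 and 1126 ± 1009. The carcinoma border held both the highest library of the series, carcinoma 08, and the lowest carcinoma, carcinoma 39. In lung metastases Kcnn4 stood at 527 ± 329 CPM for the border of the lung (n = 4) and 519 ± 73.9 for its centre (n = 3), and Aqp5 at 397 ± 130 and 565 ± 345. Core and border overlapped for both genes in adenoma and in carcinoma, and lung border and lung centre overlapped for both. Over all genes, 0 of 22676 (0%) passed edgeR's test between positions in any of these 3 comparisons, while 2143, 1276 and 1975 had an unadjusted p under 0.05 (adenoma, carcinoma and metastasis). DESeq2 called 1133, 314 and 740 genes in the same comparisons, and limma voom 19, 1 and 3.

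The reporter colour was not used to choose the genes, and it was tested. Kcnn4 stood at 796 ± 511 CPM in the red libraries (RFP, n = 18), 874 ± 391 in the green (GFP, n = 5) and 974 ± 495 in the yellow (YFP, n = 7). Aqp5 stood at 638 ± 469, 820.5 ± 179 and 948 ± 656 CPM. With a term for stage, edgeR's fit put Kcnn4 at a log2 difference of 0.17 (GFP over RFP) and 0.0086 (YFP over RFP), with an adjusted p of 1 for the joint test over the 30 libraries of a single colour. For Aqp5 the log2 differences were 0.52 and 0.35, with an adjusted p of 0.788. Neither gene passed, and nor did any of the 22447 genes (0%), of which 2464 had an unadjusted p under 0.05. DESeq2 called 0 and limma voom 7. Regions that share an animal make these p-values too small.

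Kcnn4 and Aqp5 went together over the 32 libraries as a whole, but not within every stage. Over all 32 libraries Spearman's rho was 0.677 and Pearson's r of log2(CPM + 1) was 0.765. Within stages rho was 0.571 over the adenomas (n = 8), 0.75 over the carcinomas (n = 9) and 0.0714 over the metastases (n = 7). The carcinoma value includes carcinoma 08 and carcinoma 54, the highest for both genes, and was not computed without them. No rho was computed within hyperplasia or normal gland. Once each stage's median was subtracted, rho over the 32 libraries was 0.402. Without the normal gland it was 0.575 (n = 29), and without carcinoma 08 and carcinoma 54 it was 0.608 (n = 30). Points can share an animal, and both values of a point come from 1 library, with 1 depth and 1 mix of cells. Both genes also went with total counts (rho 0.451 for Kcnn4 and 0.569 for Aqp5) and against the number of genes detected (-0.533 and -0.376). The part of animal, depth and cell mix in the rho of the pair was not tested. With the 3 libraries of few detected genes left out and the others scaled anew, the rho of the pair was 0.647, and with the scaling kept it was 0.701.

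**Figure D2:**
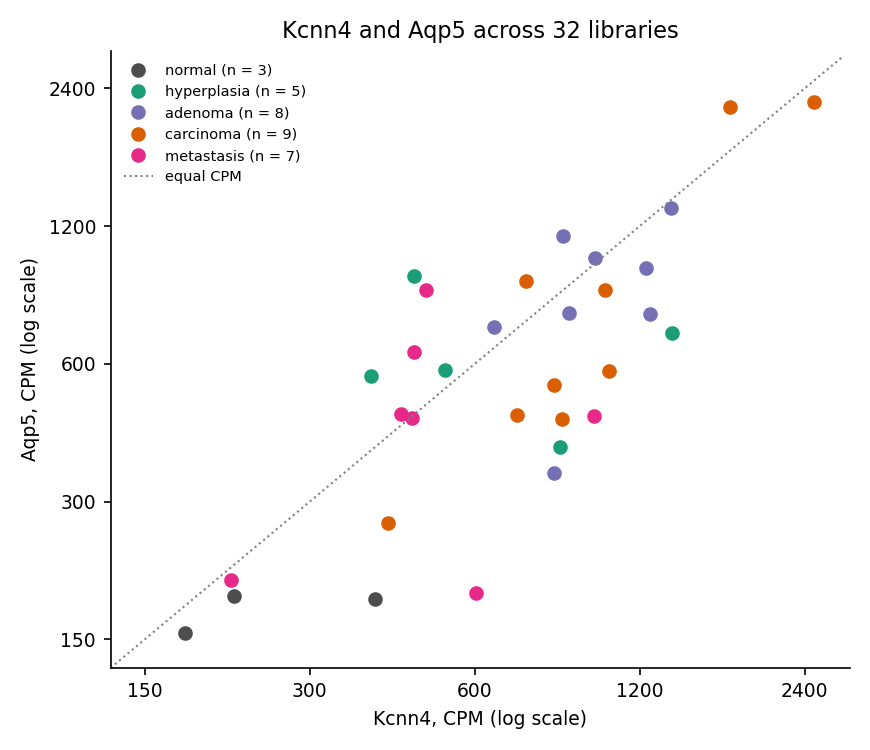
Aqp5 against Kcnn4 in the 32 libraries, both in CPM on log axes, with each stage in its own colour. The normal gland libraries lie lowest on the Aqp5 axis, at 155 to 186 CPM, and carcinoma 08 and carcinoma 54 lie at the upper right.

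The pair did not keep a fixed proportion. The ratio of Kcnn4 to Aqp5 counts ranged from 0.497 in hyperplasia 21 (95% interval 0.481 to 0.514, counting error only) to 3.18 in metastasis 42 (2.92 to 3.47). Its mean over the 32 libraries was 1.34 ± 0.618, and its stage means lay between 1.24 in hyperplasia and 1.49 in normal gland. Hyperplasia showed the opposite ends within 1 stage, since library 21 had the most Aqp5 of the 5 (934 CPM) beside 464 CPM of Kcnn4, while library 46 had the most Kcnn4 (1373 CPM) beside 701 CPM of Aqp5. Metastasis 42, with the highest ratio, is also 1 of the 3 libraries with few detected genes.

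Within stages, the spread of Kcnn4 was below the median of other abundant genes and that of Aqp5 was close to it. The SD of log2 CPM within stages was 0.63 for Kcnn4 and 0.76 for Aqp5, against a median of 0.79 over the 1248 genes that averaged at least 100 CPM. Of those genes 22.8% had a smaller SD than Kcnn4 and 45.0% a smaller one than Aqp5. By mean CPM over all libraries, Kcnn4 (815 CPM) ranked 72 and Aqp5 (705 CPM) ranked 90 of 19907 genes.

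Per kilobase of exon the levels of the pair were close, with a mean over all libraries of 410 CPM per kilobase for Kcnn4 and 392 for Aqp5. By stage Kcnn4 stood at 132 ± 57.8 CPM per kilobase for normal gland, 363 ± 204 for hyperplasia, 509 ± 125 for adenoma, 554 ± 320.0 for carcinoma and 263 ± 119 for metastasis. Aqp5 stood at 97.4 ± 9.68, 354 ± 111, 492 ± 166, 526 ± 415 and 261 ± 132 CPM per kilobase in the same stages.

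Over all libraries no other aquaporin had a mean near that of Aqp5. The next was Aqp2, its neighbour on chromosome 15 and the vasopressin-regulated water channel of the kidney collecting duct, with a mean of 8.26 CPM per kilobase. That mean rested on metastasis 42, where Aqp2 stood above Aqp5, with 314 CPM against 189.7 CPM (221 against 106 CPM per kilobase), and only 16 of the 32 libraries had a count of it. Aqp6, the neighbour on the other side, had a count in 10 libraries. Aqp1, the water channel of red blood cells and endothelium, had 1.78 CPM per kilobase, and Aqp4 and Aqp11 0.831 and 0.939. Of the 11 other aquaporins listed, 9 were tested, and 0 of the 9 passed edgeR's test in any comparison. Their median log2 difference between hyperplasia and normal gland was -2.25, with 1 of 9 above 0, where the values of Aqp5 and Kcnn4 were 1.86 and 1.46 and the median of all genes was 0. Between carcinoma and normal gland it was -1.15, with 2 of 9 above 0, against 2.43 for Aqp5. The 9 averaged only 0.279 CPM (Aqp3) to 11.7 CPM (Aqp2), so these log2 differences lie near the floor. Single libraries can carry them, as for Aqp4 with 22.7 ± 37.6 CPM in normal gland (SD, n = 3). They do not show that the family fell. DESeq2 called Aqp7 as higher in adenoma than in hyperplasia, and Aqp9 as higher in carcinoma core than at the border. These 2 genes averaged 1.20 and 2.38 CPM over all libraries. Of all genes DESeq2 called 3.06% and 1.38% in these comparisons.

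Kcnn4 was likewise the one calcium-activated potassium channel at a high level. Next in that family was Lrrc26, an auxiliary subunit that lets the large-conductance channel Kcnma1 open at lower voltage, with 15.4 CPM per kilobase. Kcnma1 itself had 1.23 CPM per kilobase, and the small-conductance channel Kcnn2 and the sodium-activated channel Kcnt2 had 1.49 and 1.41. Lrrc26 had a mean of 3.76 ± 1.87 CPM for normal gland (SD, n = 3), 43.2 ± 74.2 for hyperplasia (n = 5), 21.6 ± 20.5 for adenoma (n = 8), 16.6 ± 11.9 for carcinoma (n = 9) and 5.58 ± 7.79 for metastasis (n = 7). Of the 10 other genes of the family 8 were tested, 3 of 8 had a log2 difference above 0 between hyperplasia and normal gland (median -1.01), and 0 passed. The 8 averaged 2.02 CPM (Kcnn1) to 18.4 CPM (Lrrc26), so these differences too lie near the floor.

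**Figure D3:**
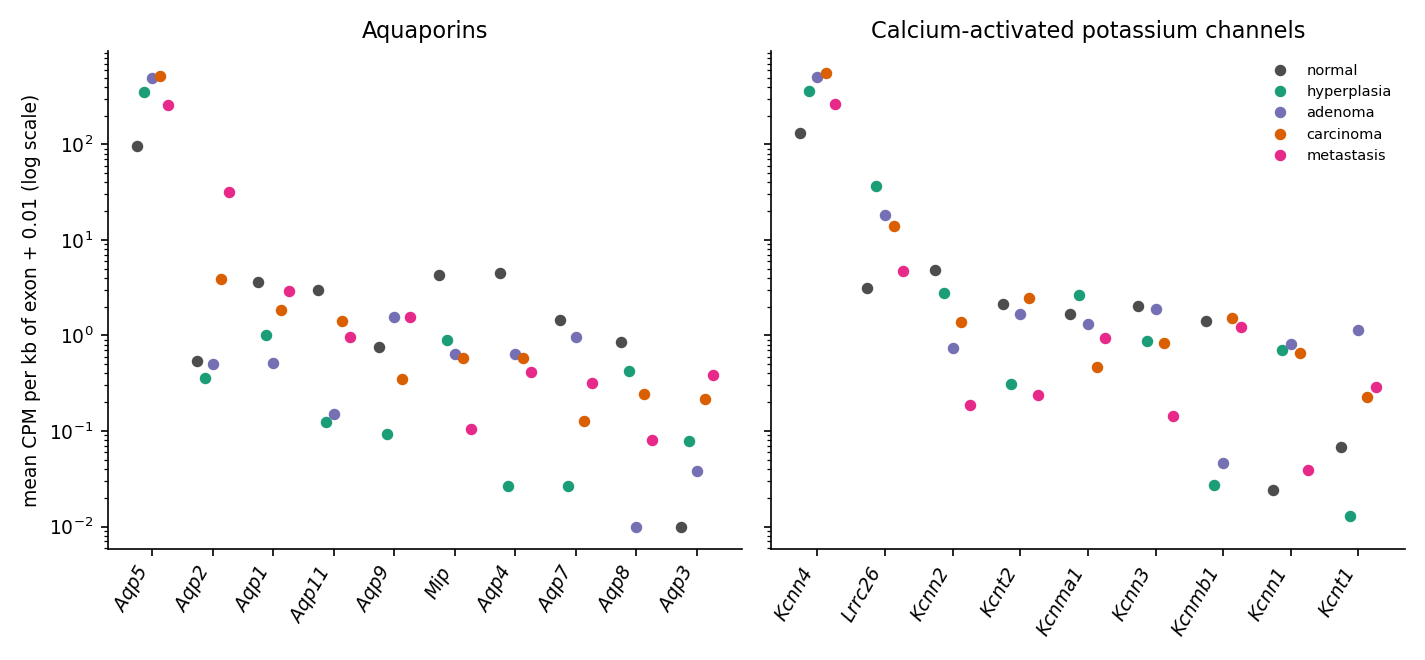
Mean level in each stage (coloured points), in CPM per kilobase of exon on a log axis with a small offset so that 0 can be drawn, for the tested aquaporins and calcium-activated potassium channel genes (x axis). Aqp5 (392 over all libraries) and Kcnn4 (410) stand far above Aqp2 (8.26) and Lrrc26 (15.4), the next in each family.

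Among other potassium channels of epithelia, the potassium leak channels Kcnk1 and Kcnk5 led with means of 72.3 and 42.2 CPM. Kcne3, a subunit of the Kcnq1 channel, and Kcnk6 followed with 16.5 and 16.3 CPM. Kcnk1 had 31.2 ± 17.9 CPM in normal gland (SD, n = 3) and 113.7 ± 98.0 in adenoma (n = 8). Of the 17 channels on this list 14 were tested, 6 of the 14 were above 0 on the log2 scale between hyperplasia and normal gland and 6 of 14 between carcinoma and normal gland, and 0 passed.

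The genes known to act on the Kcnn4 protein were all present. Calm2 and Calm3 encode calmodulin, Nme2 is the histidine kinase that activates the channel, Phpt1 the phosphatase that reverses it, Mtmr6 and Trim27 are inhibitors, and Pik3c2b is an activator. Nme2 had a mean of 382 CPM, Calm2 376 CPM and Calm3 96.8 CPM over all libraries. Calm2 stood at 157 ± 95.8 CPM for normal gland (SD, n = 3), 485 ± 321 for hyperplasia (n = 5), 446 ± 161 for adenoma (n = 8), 387 ± 165 for carcinoma (n = 9) and 299 ± 142 for metastasis (n = 7). It went with Aqp5 at a rho of 0.662 and with Kcnn4 at 0.467. All 8 genes of the list were tested, 7 of 8 were above 0 between hyperplasia and normal gland (median log2 difference 1.08, all genes 0) and 8 of 8 between carcinoma and normal gland (0.67, all genes 0.10), and 0 passed. Calm2 had an adjusted p of 0.282 between hyperplasia and normal gland by edgeR's test.

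Genes of calcium entry and release were spread around 0. The calcium pump Atp2b1 had the highest mean, 202 CPM, before the IP3 receptor Itpr3 with 151 CPM, Saraf, which inactivates store-operated entry, with 105 CPM, and the reticulum pump Atp2a2 with 100.2 CPM. Of the 18 genes, 7 were above 0 between hyperplasia and normal gland (median log2 difference -0.32), 9 of 18 between carcinoma and normal gland (0.08), and 0 passed.

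In the chloride and fluid secretion list Ano1 and Slc12a2 went closely with the pair, while the list as a whole did not. The mean log2 level of its 27 genes had a rho of 0.0550 with Kcnn4 and 0.0543 with Aqp5. Cftr went the other way, with -0.482 and -0.347. Cftr stood at 46.3 ± 78.1 CPM in normal gland (SD, n = 3) and 1.31 ± 1.94 in carcinoma (n = 9). Its normal gland values ran from 0.410 to 136 CPM, so that mean rests largely on 1 library. Only 17 libraries had a count of it. Ano1, the calcium-activated chloride channel, stood at 226 to 246 CPM in normal gland. Its means were 233 ± 11.5 CPM there (SD, n = 3), 492 ± 235 for hyperplasia (n = 5), 565 ± 199 for adenoma (n = 8), 562 ± 331 for carcinoma (n = 9) and 400.1 ± 164 for metastasis (n = 7). Slc12a2 stood at 67.4 ± 27.8, 157 ± 129, 176 ± 96.6, 302 ± 302 and 110.4 ± 54.5 CPM in the same stages. The rho of Ano1 was 0.688 with Kcnn4 and 0.692 with Aqp5, and that of Slc12a2 was 0.702 with Kcnn4 and 0.547 with Aqp5. Fxyd3, a subunit of the sodium pump, had the highest mean of the list (529 CPM), and the chloride channel regulator Clca3a2 had 316 CPM. Of the 27 genes 20 were above 0 between hyperplasia and normal gland (median log2 difference 0.76, all genes 0) and 17 of 27 between carcinoma and normal gland (0.20, all genes 0.10), and 0 passed.

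The 4 genes Kcnn4, Aqp5, Ano1 and Slc12a2 were high side by side in some libraries and not in others. Carcinoma 08 held 1166 CPM of Ano1 and 786 CPM of Slc12a2, and carcinoma 54 held 1003 and 844 CPM, against 168.5 to 597 and 67.5 to 284 CPM in the other 7 carcinomas. Adenoma 25 was the highest adenoma for all 4, with 1371 CPM of Kcnn4, 1316 of Aqp5, 874 of Ano1 and 372 of Slc12a2. Hyperplasia 46 was the highest of its stage for Kcnn4, Ano1 (878 CPM) and Slc12a2 (385 CPM), and the second for Aqp5. By contrast, hyperplasia 21 had the most Aqp5 of its stage (934 CPM) beside the least Ano1 (270 CPM). Metastasis 40 had 577 CPM of Ano1, the second highest of its stage, beside the least Slc12a2 (22.2 CPM). Ano1 and Slc12a2 were singled out by their rho with the pair in these same libraries. The libraries named as high for the 4 genes were also deep. Carcinoma 08, carcinoma 54 and hyperplasia 46 (15226553 counts) had the highest total counts of their stages. Adenoma 25 (14854078) came after adenoma 34 (19585351), which held 868 CPM of Kcnn4, 1143 of Aqp5, 522 of Ano1 and 124 of Slc12a2. The part of depth in this pattern was not tested.

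Taken over the 6 channel and transport lists, 84 genes other than the pair were tested between stages. EdgeR called 0 of them in each of the 5 stage comparisons, with 7 to 14 at an unadjusted p under 0.05. These were 8.33% to 16.7% of the 84, against 8.17% to 14.8% of all 19907 genes. DESeq2 called 2 between hyperplasia and normal gland, Trpv6 and Kcna5 (2.38% of the 84, against 2.43% of all genes), and 4 between adenoma and hyperplasia (4.76% against 3.06%). Trpv6 had no count in hyperplasia, and Kcna5 had none in normal gland and a count in only 4 libraries. DESeq2 further called 1 between carcinoma and adenoma (1.19% against 1.35%), 1 between metastasis and carcinoma (1.19% against 0.934%) and 0 between carcinoma and normal gland (0.889% of all genes). Limma voom called the leak channel Kcnk2 as lower than in normal gland, with a log2 difference of -7.25 in hyperplasia (adjusted p = 0.00185) and -6.82 in carcinoma (adjusted p = 0.000888), and no other. Of all genes it called 0.532% and 0.517% in these comparisons, and 0.0151%, 0.0201% and 0.0703% in the 3 between successive later stages. Between positions 91 genes were tested, of which edgeR and limma voom called 0, with 4 to 9 at an unadjusted p under 0.05 by edgeR. DESeq2 called 3 in adenoma, 1 in carcinoma and 0 in metastasis, against 5%, 1.38% and 3.26% of all genes (limma voom 0.0838%, 0.00441% and 0.0132%). Nothing particular to the lists is read from these shares. Ano1 and Slc12a2 were called by none of the 3 tools in any comparison.

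Over the 12039 genes that averaged at least 5 CPM and had a count in at least 50% of the libraries, the median rho was 0.0154 with Kcnn4 and 0.0599 with Aqp5. Aqp5 ranked 19 among the genes most like Kcnn4, and Kcnn4 ranked 12 among those most like Aqp5. Among the 8 genes closest to Kcnn4 were Nectin2 (0.782), an adhesion molecule of cell junctions, the ATPase Vcp (0.774), the actin crosslinker Actn4 (0.769), the carboxypeptidase Cpd (0.732), Slc12a2 (0.702), the mitochondrial serine transporter Sfxn1 (0.701) and Rabl6 (0.700). Nectin2 stood at 20.2 ± 11.3 CPM for normal gland, 31.2 ± 29.0 for hyperplasia, 69.6 ± 44.2 for adenoma, 65.0 ± 33.4 for carcinoma and 34.8 ± 18.4 for metastasis. The 3 most opposite to Kcnn4 were the arginine transporter Slc7a2 (-0.822), the mineralocorticoid receptor Nr3c2 (-0.704) and the growth factor Fgf10 (-0.693). Slc7a2 stood at 39.4 ± 8.30 CPM in normal gland, 2.13 ± 3.54 in adenoma and 21.4 ± 26.9 in metastasis.

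The 8 genes closest to Aqp5 were Npnt (0.805), which encodes the matrix protein nephronectin, the respiratory chain subunit Ndufa7 (0.734), Dap (0.709), the vesicle transport protein Tmed3 (0.705), the ribosomal protein gene Rps27l (0.695), Ano1 (0.692), Pgrmc1 (0.688) and Adck5 (0.687). Npnt stood at 58.1 ± 13.4 CPM for normal gland, 213 ± 156 for hyperplasia, 242 ± 139 for adenoma, 159.7 ± 70.5 for carcinoma and 78.2 ± 43.2 for metastasis. The most opposite were the kinase Lrrk2 (-0.777), the basal keratin Krt14 (-0.732) and the retinal dehydrogenase Aldh1a1 (-0.706). Of the 100 genes most like each member, leaving out the pair, 29 of 99 were shared (29.3% of each list), and Slc12a2, Ano1, Krt8, Krt18, Epcam and Cldn3 were in both. With the stage medians removed, 1 of the 8 genes closest to Kcnn4 and 0 of the 8 closest to Aqp5 were still among the closest 8, although the rho of Vcp with Kcnn4 was then 0.709 and that of Npnt with Aqp5 was 0.665.

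**Figure D4:**
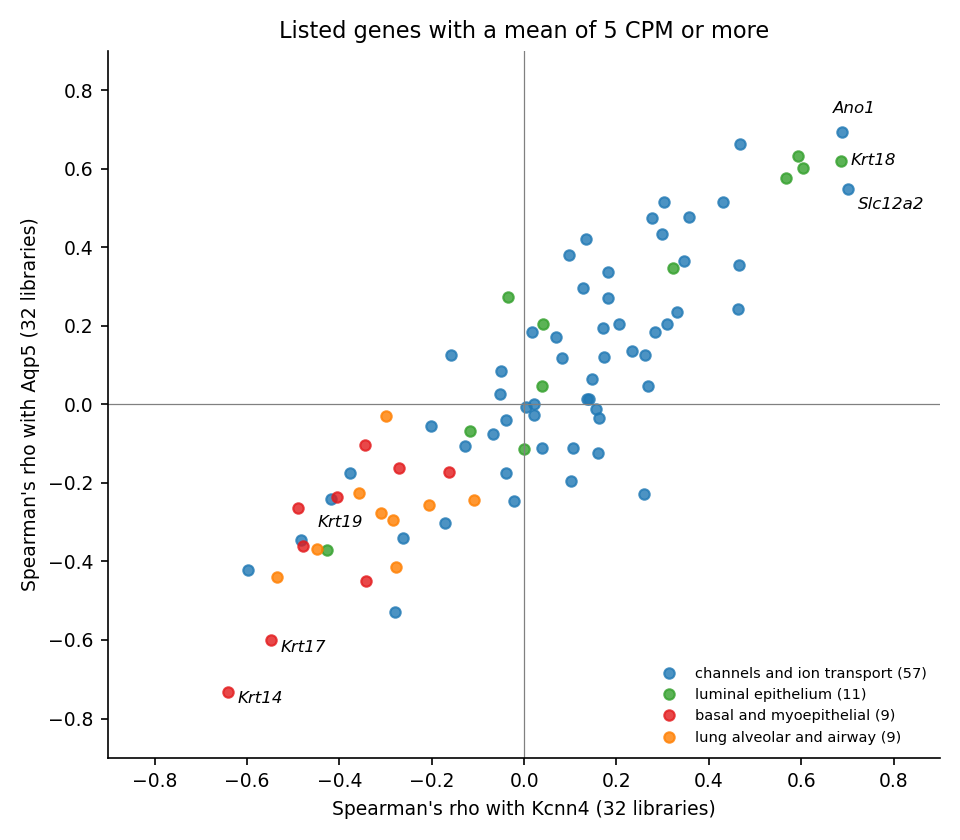
Spearman's rho with Kcnn4 (x axis) and with Aqp5 (y axis) over 32 libraries for the listed genes that averaged at least 5 CPM, coloured by list. All 9 basal and all 9 lung genes lie below 0 on both axes, and Ano1, Slc12a2 and Krt18 lie at the upper right. The share of all genes below 0 on both axes was not computed.

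Among the luminal markers 7 of 11 had a rho above 0 with both genes and 2 below 0 with both, and the mean log2 level of the list had a rho of 0.229 with Kcnn4 and 0.308 with Aqp5. Krt8 had a rho of 0.604 with Kcnn4 and 0.602 with Aqp5, Krt18 0.686 and 0.620, and the epithelial adhesion molecule Epcam 0.593 and 0.633. Other luminal keratins went the other way, Krt19 with -0.426 and -0.372 and Krt7 with -0.118 and -0.0682. Of the basal and myoepithelial markers that averaged at least 5 CPM, 9 of 9 had a rho below 0 with both genes, and so had 9 of 9 lung markers. Over all 12039 compared genes the median rho was 0.0154 with Kcnn4 and 0.0599 with Aqp5. The share of them below 0 with both was not computed, so nothing particular to these lists is read from the counts. The mean log2 level of all 10 basal markers had a rho of -0.705 with Kcnn4 and -0.553 with Aqp5, that of the 7 endothelial markers -0.532 and -0.5, and that of the 8 macrophage markers -0.453 and -0.275. The summed basal markers stood at 199.6 to 288 CPM for normal gland (median 245), with medians of 139 for hyperplasia, 66.6 for adenoma, 52.8 for carcinoma and 177 for metastasis, and all 10 had a count in every stage. Summed fibroblast markers had a median of 1557 CPM in normal gland (618 to 2831 CPM), against 254, 88.4, 183 and 86.3 CPM. Krt8 and Krt18 summed to 615 ± 239 CPM for normal gland (SD, n = 3), 1187 ± 330.0 for hyperplasia (n = 5), 1428 ± 421 for adenoma (n = 8), 1400 ± 587 for carcinoma (n = 9) and 1103 ± 256 for metastasis (n = 7). Normal gland thus had the lowest mean of Krt8 plus Krt18 and the highest medians of basal and fibroblast markers, beside the lowest means of Kcnn4 and Aqp5, and the part of cell composition in the difference between stages was not tested.

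Set against Krt8 and Krt18, the differences from normal gland were smaller. This follows from the division, since Krt8 plus Krt18 was itself 2.27 times as high in carcinoma as in normal gland. The scale is no measure of the share of epithelium, as Krt19 and Krt7 went the other way. Per CPM of Krt8 plus Krt18, Kcnn4 stood at 0.425 ± 0.0395 for normal gland, 0.653 ± 0.390 for hyperplasia, 0.735 ± 0.153 for adenoma, 0.790 ± 0.297 for carcinoma and 0.470 ± 0.159 for metastasis. The carcinoma mean was 1.86 times that of normal gland on this scale, against 4.19 times in CPM. All 8 adenomas and all 9 carcinomas were still above the 3 normal libraries (0.380 to 0.452), while 3 of 5 hyperplasias and 4 of 7 metastases were. Aqp5 stood at 0.308 ± 0.0898, 0.562 ± 0.223, 0.668 ± 0.293, 0.6248 ± 0.299 and 0.433 ± 0.250 in the same stages. Its carcinoma mean was 2.03 times that of normal gland, and 5 of 5 hyperplasias, 6 of 8 adenomas, 8 of 9 carcinomas and 3 of 7 metastases were above the normal range. The share of all genes above normal gland on this scale was not computed, so nothing particular to the pair is read from these counts. The rho between the pair was 0.504 on this scale.

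**Figure D5:**
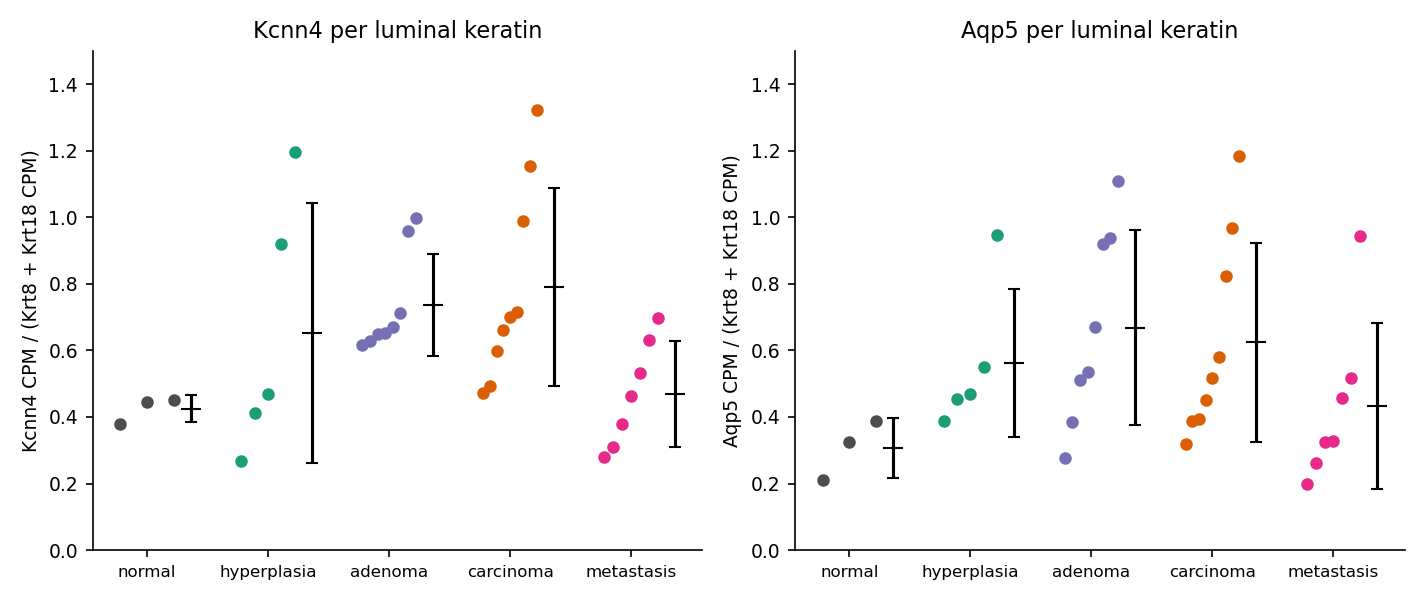
Kcnn4 and Aqp5 per CPM of Krt8 plus Krt18 in each library, by stage (x axis), with 1 point per library and black bars for the stage mean and SD. For Kcnn4 the adenomas and carcinomas lie above the normal libraries (0.380 to 0.452), and the metastases reach from 0.279 to 0.698.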

How the data were processed

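RNA from 32 laser-captured regions was sequenced as amplified cDNA from fixed sections, per the labels' protocols, by a Geo-seq protocol built on Smart-seq2 and Nextera XT. Reads were aligned with STAR to mm10, per the submitters' processing notes, while the sources used here do not name the counting program, annotation or strand setting. The deposited table holds raw counts, whole numbers per gene ID, for 24454 IDs, of which 24374 matched a symbol in the RefSeq annotation of GRCm38.p6 and 80 did not.

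Counts were filtered with filterByExpr (19907 genes by stage, 22676 by position, 22447 by colour), scaled by TMM and fitted with edgeR 4.0.16's quasi-likelihood model over all libraries (the 30 of a single colour for colour), with two-sided tests, Benjamini-Hochberg adjustment and a threshold of 0.05. Common dispersion came to 2.64. R 4.3.3, limma 3.58.1 and DESeq2 1.42.0 served for alternatives, and the code was tested on simulated data. Pseudocount on the log scale: 1 CPM. Exon lengths came from GENCODE principal transcripts.

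Both genes and all lists (20 lists, 226 genes) were chosen with earlier results of these data known. The text names, beside the pair, the 8 genes most like each, the 3 most opposite, each channel or transport list's genes that passed or else its 4 of highest mean, and each marker list discussed. Other genes named were chosen after their values were seen, and a few that the rule covers are not reported here.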

Additional observations from a re-analysis of the deposited data

How the results depend on the processing

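No paired analysis was possible because the replicate numbers in the labels are shared by no 2 stages. The small number of edgeR calls depended on the tool. DESeq2 called 483 genes between hyperplasia and normal gland, 609 between adenoma and hyperplasia, 269 between carcinoma and adenoma, 186 between metastasis and carcinoma and 177 between carcinoma and normal gland, and 1133, 314 and 740 between positions in adenoma, carcinoma and metastasis. Limma voom called 106, 3, 4, 14 and 103 genes between the same stages, 19, 1 and 3 between positions and 7 by colour. In edgeR's fit, DESeq2 size factors gave 2 calls between carcinoma and normal gland. Without a filter on low counts there were 5 between metastasis and carcinoma, 2 between carcinoma and normal gland, 2 between adenoma positions and 1 between metastasis positions. With detected genes as a covariate there were 168 between carcinoma and adenoma and 0 between carcinoma and normal gland, and without the libraries under 11000 detected genes there were 2 in the latter. The causes were not tested. With each library left out in turn, edgeR's calls ranged from 0 to 1 (carcinoma against normal gland, carcinoma against adenoma, adenoma and carcinoma positions, colour), from 3 to 4 (metastasis against carcinoma), and were 0 in the other comparisons.

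Of 40 stage means of Kcnn4 and Aqp5 under other scalings or without libraries, 33 moved by less than 1 SD. Without the gene ID of highest share, which raises every CPM, Kcnn4 averaged 406 CPM in normal gland and 1427 CPM in adenoma, and Aqp5 averaged 269 CPM in normal gland, 893 CPM in hyperplasia and 1251 CPM in adenoma. Aqp5 in normal gland averaged 227 CPM with DESeq2 size factors and 199 CPM without the libraries under 11000 detected genes. The Kcnn4 mean of normal gland ranged from 196 to 303 CPM and that of hyperplasia from 575 to 804 CPM with a library left out. The rho of the pair was 0.555 with DESeq2 size factors and ranged from 0.594 (without carcinoma 39) to 0.719 (without hyperplasia 21), and was 0.402 with stage medians removed, 0.0714 within metastasis and, in an alternative added after seeing the data, 0.504 per luminal keratin. The settings without carcinoma 08 and 54 and without normal gland were added after seeing the data too. Of the 8 genes closest to Kcnn4, 5 stayed without the libraries under 11000 detected genes, 4 with Pearson's r and 1 with stage medians removed. Of those closest to Aqp5, 5 stayed with Pearson's r and 0 with stage medians removed.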
